A study of Drosophila melanogaster with 2 samples.

Results

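The genes described here are 10 genes of the epidermal growth factor (EGF) receptor pathway of Drosophila melanogaster, chosen by name, out of 13945 protein-coding genes in the annotation. They are the receptor gene Egfr, the ligand genes spi, vn and Krn, the ligand protease genes rho and ru, the inhibitor genes aos and sty, and the nuclear effector genes pnt and aop. For each gene, every interval of the peak lists that overlapped its span plus 5 kb on each side by at least 1 bp was collected, together with the position of its summit relative to the transcription start sites (TSSs) and its rank by signal value. Chromatin was immunoprecipitated with an antibody against GFP from whole embryos of mixed sex, 0 to 24 h old, of the strain luna-MiMIC-GFP, in which an eGFP exon placed in an intron of luna makes a luna-GFP fusion gene. The libraries were 2 biological replicates of this 1 group, so every embryo carried the fusion, and no group without it was analysed here. Luna belongs to the Krüppel-like (KLF) family of zinc finger transcription factors. A whole embryo is a mixture of all its cell types and of many stages, so an interval does not say in which cells the fusion protein was recovered.

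The EGF receptor pathway carries signals between neighbouring cells and patterns many tissues of the fly embryo. Spitz (spi) and Keren (Krn) are ligands made as membrane-bound precursors, which intramembrane proteases of the rhomboid family (rho, ru) cut to release them, while Vein (vn) is made as a secreted ligand. The receptor signals through Ras and the MAP kinase cascade to a pair of ETS-domain factors, the activator Pointed (pnt) and the repressor Anterior open (aop, also called Yan). Argos (aos) holds the ligand outside the cell and Sprouty (sty) acts inside the cell, and both are known feedback inhibitors of the pathway.

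An interval of high signal was recovered at the ligand gene spi, and another in intergenic sequence 4318 bp upstream of the ligand gene Krn. A further 5 genes had only intervals below the median signal of the list that passed the threshold, and Egfr, rho and ru had none that passed. The threshold is set on the irreproducible discovery rate (IDR), a score of how alike peaks rank in both replicates. The list that passed it held 1696 intervals, the strongest 1696 of 21725 candidates called on both replicates pooled. Membership thus followed the pooled rank, and a single listed interval need not rank alike in both replicates. Of the 10 genes, 7 had at least 1 IDR interval in the span plus 5 kb, against 28.9% of all protein-coding genes. The 10 genes are long, with a median span of 19.5 kb against 2.17 kb for all protein-coding genes, and a longer span can take in more intervals. Among the 3395 protein-coding genes with spans from 4.72 to 55.9 kb, the range of the 10 genes, 36.7% had an IDR interval. Only the ends of that range were matched, not the spread of spans within it, so the comparison does not remove the effect of length. The 7 genes had 16 IDR intervals, 6 of them at Krn, 3 at aop, 2 each at spi and pnt, and 1 each at vn, aos and sty.

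The sequences under 5 of the 16 summits are shown because they lie under the strongest interval of the pathway genes, the strongest intergenic interval, the shared Krn promoter, the strongest interval of an inhibitor gene, and the promoter of aop, itself an ETS factor gene. Each is the summit base with 100 bp on either side, or the part of it outside annotated untranslated exons. The letters were read 5′ to 3′ on the strand of the gene from RefSeq's Release 6 genome, which has the coordinates of dm6. Capitals mark elements of the motif list described further on, and windows without capitals held none of them (CGATA counts only as a pair).
spi, 151 bp upstream of an internal TSS, chr2L:19575638-19575838, minus strand: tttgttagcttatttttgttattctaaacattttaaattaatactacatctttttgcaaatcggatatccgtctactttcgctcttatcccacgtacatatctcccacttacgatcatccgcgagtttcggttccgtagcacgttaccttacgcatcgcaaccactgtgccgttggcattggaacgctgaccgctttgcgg
Krn, 4318 bp upstream of the TSS, chr3L:17658498-17658698, minus strand: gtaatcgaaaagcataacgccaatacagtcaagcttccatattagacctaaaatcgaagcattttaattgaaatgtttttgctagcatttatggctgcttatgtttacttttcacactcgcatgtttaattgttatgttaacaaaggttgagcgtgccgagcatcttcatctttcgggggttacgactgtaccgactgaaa
Krn, 79 bp upstream of the TSS, with a pair of CGATA elements in capitals, chr3L:17654281-17654459, minus strand: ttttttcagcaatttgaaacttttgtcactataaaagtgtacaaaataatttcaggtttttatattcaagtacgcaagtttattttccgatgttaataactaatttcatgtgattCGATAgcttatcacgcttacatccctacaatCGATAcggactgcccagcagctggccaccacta
aos, 3066 bp downstream of the TSS in an intron, chr3L:16480484-16480684, minus strand: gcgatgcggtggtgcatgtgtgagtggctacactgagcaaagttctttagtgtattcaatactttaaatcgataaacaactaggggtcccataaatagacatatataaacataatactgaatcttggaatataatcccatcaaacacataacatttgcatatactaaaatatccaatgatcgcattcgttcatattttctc
aop, 381 bp upstream of an internal TSS, with the ETS core CGGAAG in capitals, chr2L:2161808-2162008, minus strand: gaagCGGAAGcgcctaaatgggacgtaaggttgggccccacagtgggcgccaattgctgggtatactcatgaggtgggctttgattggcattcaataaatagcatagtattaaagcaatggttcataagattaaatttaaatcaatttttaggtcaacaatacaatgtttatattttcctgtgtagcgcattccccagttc

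Signal values are the authors' own score of each peak, without a stated scale, and the depth of the libraries is unknown. Values and ranks are therefore read within 1 list at a time. In the IDR list they ran from 46.4 to 689 with a median of 64.7, and the 16 intervals of the pathway genes ran from 47.4 to 139 with a median of 54.2. Of these 16, 4 were among the 848 strongest of the list and 2 among the 424 strongest. The pooled list held 115 candidates in the regions of the 10 genes, which merge into 102 separate stretches because some candidates overlap. Of the 115 candidates, 13.9% were in the IDR list, against 7.81% of all pooled candidates. The regions had 49.8 IDR intervals per Mb, or 32.6 without the region of Krn, against 14.9 per Mb over the spans plus 5 kb of all protein-coding genes. The strongest candidate of each gene had a median rank of 1450.5 in the pooled list, against 3263 over the 12309 protein-coding genes with a candidate and 2552 over those of the same span range.

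**Figure D1:**
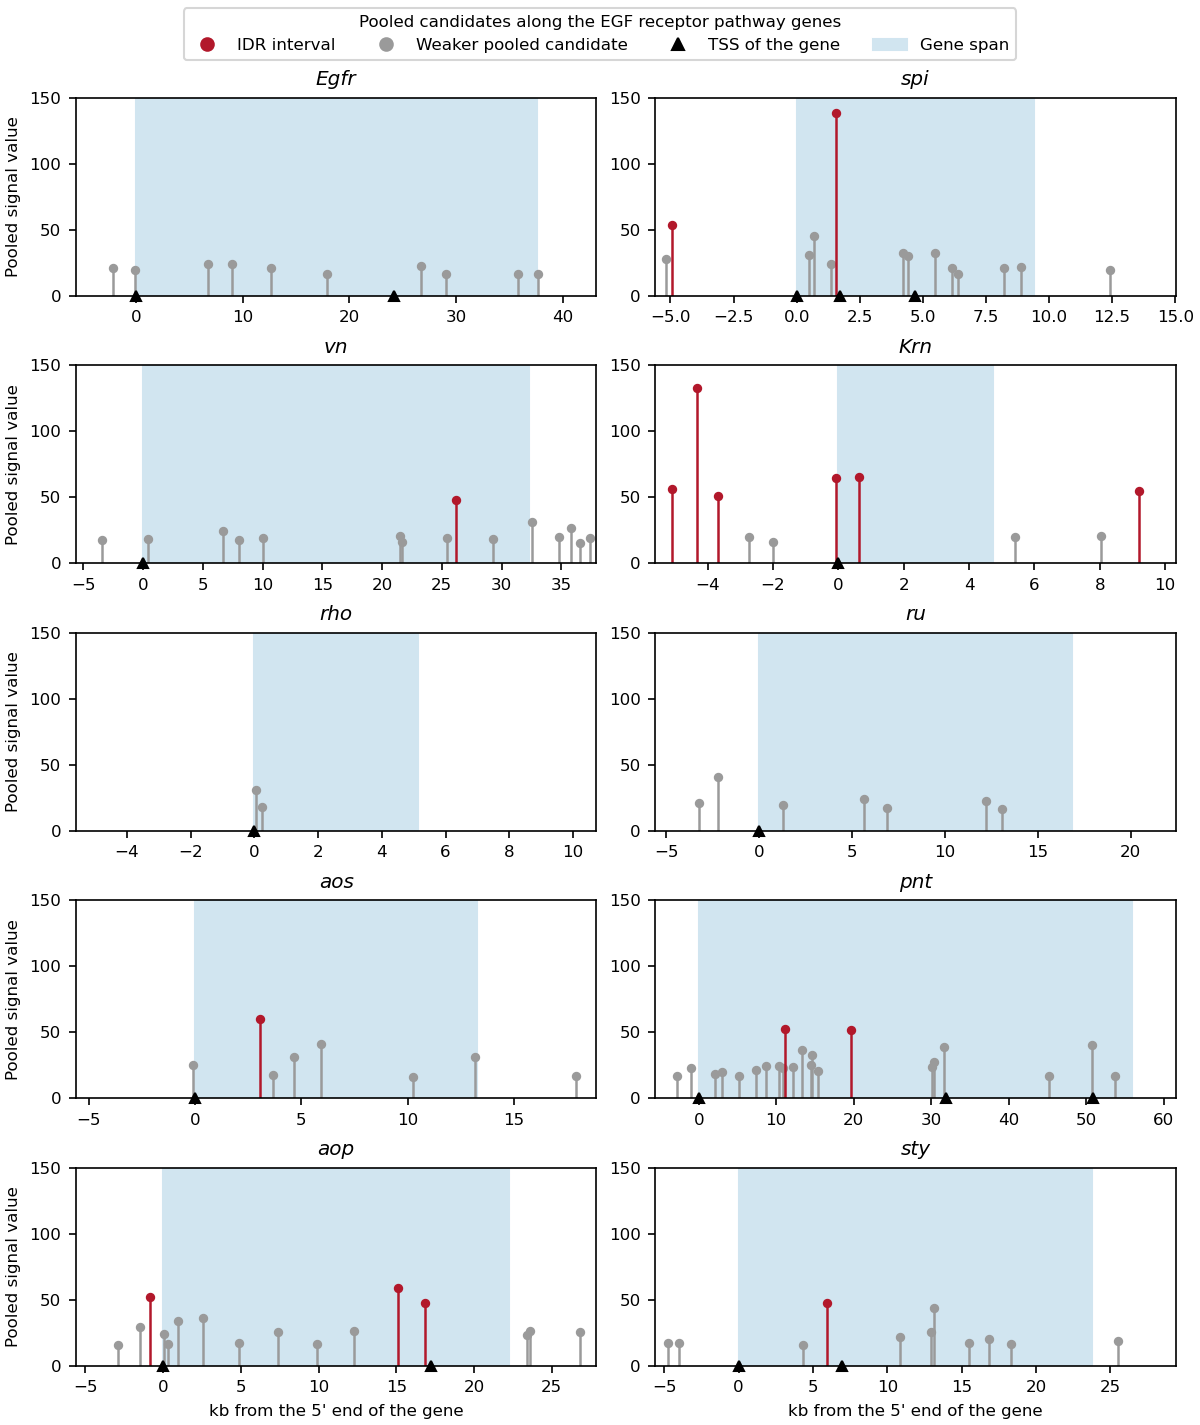
Pooled candidates along the 10 genes. The x axis is the distance from the 5′ end of each gene in kb, in the direction of transcription, the y axis is the authors' pooled signal value, red stems are IDR intervals, grey stems are weaker candidates, triangles are TSSs and the blue band is the gene span. The intervals of 139 at spi and 133 at Krn stand above all others, and Egfr, rho and ru have grey stems only.

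The gene spi, which encodes the main ligand of the receptor in the embryo, carried the strongest interval of the 10 genes. It lay at chr2L:19575550-19575925 with a signal of 139 and rank 133 of 1696, and its summit was 151 bp upstream of an internal TSS at 19575587, within the gene. The nearest candidate ranked 76 of 30000 with a signal of 84.9 in replicate 1 and 357 of 30000 with a signal of 52.1 in replicate 2, so both replicates placed it high. The 2 other spi TSSs had weaker candidates, with pooled ranks of 3663 at 19572610 and 4062 at 19577315. A candidate 693 bp downstream of the 5′ end of the gene ranked 1798 with a signal of 45.2, just outside the IDR list, and it ranked 1222 in replicate 1 but 5112 in replicate 2. The other IDR interval of the spi region, with a signal of 53.4 and rank 1262, lay 4958 bp upstream of spi. That summit was just downstream of the TSS of Hakai, an E3 ubiquitin ligase gene, and within 500 bp of that TSS, so it counts for spi only through the 5 kb flank. It ranked 696 in replicate 2 and 5166 in replicate 1.

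Krn, a ligand gene of the same type as spi, had 6 IDR intervals in a region of 14.7 kb. Genes with at least 6 IDR intervals in the span plus 5 kb made up 0.0359% of the protein-coding genes, 5 of 13945, and the highest number at any gene was 7. These 5 genes include Krn, whose own count set the cutoff of 6, and neighbouring genes can share intervals. The gene phl, 1 of the other pathway genes considered further on, had 5 IDR intervals in its region. The strongest of the 6, at chr3L:17658410-17658785, had a signal of 133 and rank 153 of 1696. Its rank was 176 in replicate 1 with a signal of 60.7 and 155 in replicate 2 with a signal of 70.8, so both replicates placed it high.

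That interval is intergenic, 4318 bp upstream of the Krn TSS and 3981 bp from the TSS of CG7484, between the end of CG7484 and the end of Crtc. A pair of weaker IDR intervals flanked it, with summits 3692 and 5095 bp upstream of Krn and signals of 51.3 and 56.4. They ranked 949 and 846 in replicate 2, but 7765 and 2060 in replicate 1, so replicate 1 alone did not place them among its 1696 strongest. The summit of the interval 5095 bp upstream lies just beyond the 5 kb flank and 443 bp from the span of Crtc, which encodes a CREB-regulated transcription coactivator. The strongest interval lies 1220 bp from Crtc and the one 3692 bp upstream lies 1846 bp from it, so all 3 are nearer to the end of Crtc than to any TSS.

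At the Krn TSS itself an interval with a signal of 64.8 and rank 841 had its summit 79 bp upstream. Krn shares this TSS with Ndfip in the annotation, and the TSS of CG7484 lies farther off, 258 bp from the summit on the other side. The summit is thus within 500 bp of a TSS of 3 genes and cannot be assigned to 1 of them. It ranked 432 in replicate 1 and 2119 in replicate 2. An intronic interval 624 bp downstream of the TSS had a signal of 65.8 and rank 815, with ranks of 1162 and 697 in replicates 1 and 2. The last of the 6, with a signal of 55.0 and rank 1179, lay 33 bp upstream of the TSS of Pep, a neighbouring gene that codes for a zinc finger protein, and 9211 bp from the Krn TSS. Krn thus has 3 IDR intervals more than 3 kb upstream, 2 within 1 kb of its shared TSS and 1 that lies at the promoter of another gene.

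The gene vn, whose product is a neuregulin-like ligand, had a single IDR interval near the threshold. It had a signal of 47.8 and rank 1590 of 1696, and lay in an intron 26195 bp downstream of the only vn TSS. Its rank was 1577 in replicate 1, with a signal of 22.6, and 3253 in replicate 2, with a signal of 20.5. At the vn TSS the strongest pooled candidate ranked 13898 with a signal of 18.6. In replicate 2 the strongest candidate of the region, with rank 1570, lay in an intron of the neighbour S6k and had no candidate within 250 bp in replicate 1.

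The protease genes rho and ru had no IDR interval. The gene rho, which encodes Rhomboid-1, had 2 pooled candidates, both at its TSS and overlapping each other, and the stronger had its summit 48 bp downstream with a signal of 30.6 and rank 4085 of 21725. It ranked 4329 in replicate 2, while the nearest candidate in replicate 1 ranked 16485. The span of Ptp61F also covers both pooled summits of rho. The gene ru, which encodes another rhomboid protease and lies within the span of Ptp61F, had 7 pooled candidates and none within 500 bp of its TSS in any of the lists. Its strongest, 2213 bp upstream of the TSS in an intron of Ptp61F, had a signal of 41.0 and rank 2186. In replicate 1 a candidate with rank 1526 and a signal of 23.0 had its summit 2342 bp upstream of ru, and replicate 2 had rank 3014 and a signal of 21.1 there. The replicate 1 candidate with the summit nearest to the pooled one was a weaker one, of rank 27113.

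The receptor gene Egfr, which has a span of 37.6 kb on 2R, had the lowest-ranked top candidate of the 10 genes in the pooled list and in replicate 2, while in replicate 1 the top candidate of rho ranked lower. It had 10 pooled candidates with a median rank of 11296, and the strongest had a signal of 24.4 and rank 6952 of 21725, in an intron 8985 bp downstream of the first TSS. That candidate lay 790 bp downstream of the TSS of the non-coding gene lncRNA:CR44725, and ranked 17632 in replicate 1 and 11287 in replicate 2. At the first Egfr TSS a candidate with its summit 66 bp upstream had a pooled rank of 12702, a rank of 6371 in replicate 2 and no match in replicate 1. The second TSS had no pooled candidate within 500 bp. The strongest candidate in replicate 2, with rank 5104 and a signal of 16.9, lay in an intron and had no match in replicate 1. The region of Egfr had 2.10 pooled candidates per 10 kb, that of rho 1.32 and those of the other 8 genes 2.61 or more.

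Of the inhibitor genes, aos had the stronger interval. Its single IDR interval, at chr3L:16480396-16480771, had a signal of 60.1 and rank 975, and lay 3066 bp downstream of the TSS in an intron. It ranked 1364 with a signal of 24.2 in replicate 1 and 853 with a signal of 36.1 in replicate 2, within the strongest 1696 of both. The gene CG33158 also spans this position. A further intronic candidate 5897 bp downstream had a signal of 41.0 and rank 2183, with rank 1213 at its nearest match in replicate 2 and 5329 in replicate 1. The aos TSS had a candidate 87 bp upstream of rank 6393.

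At sty the IDR interval lay 1000 bp upstream of an internal TSS, in an intron of sty, with a signal of 47.4 and rank 1618 of 1696. This was the weakest of the 16 intervals, with ranks of 2122 and 1219 in replicates 1 and 2. The next candidate of sty, 6163 bp downstream of that TSS, had a signal of 43.5 and rank 1934, outside the list, and ranked 1727 and 2452 in replicates 1 and 2. Its summit lay 389 bp downstream of the TSS of the non-coding gene FBtr0304360_df_nrg, and so within 500 bp of a TSS. Neither sty TSS had a pooled candidate within 500 bp, and in replicate 2 alone a candidate of rank 5924 lay 9 bp upstream of the internal TSS.

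The genes of both ETS factors had IDR intervals, none of them with a summit within 500 bp of the 5′ end of the gene. The gene pnt, with a span of 55.9 kb and 3 TSSs, had 2 IDR intervals, both intronic, at chr3R:23334836-23335211 with a signal of 52.5 and rank 1311 and at chr3R:23326281-23326656 with a signal of 51.6 and rank 1354. They lay 11143 bp downstream and 12154 bp upstream of the nearest pnt TSS, and the first was 1221 bp upstream of the non-coding gene lncRNA:CR46090. The first ranked 1191 and 1544 in replicates 1 and 2, and the second 1280 and 1830. The internal pnt TSSs had candidates 199 and 222 bp upstream with signals of 40.1 and 38.7 and pooled ranks of 2289 and 2476, both below the threshold, and the TSS at the 5′ end had none in the pooled list. In replicate 1 the strongest candidate at pnt, with rank 970 and a signal of 28.5, was in an intron 14632 bp from the 5′ end and had a match of rank 20165 in replicate 2.

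The gene aop had 3 IDR intervals. The strongest had a signal of 59.0 and rank 1023 in an intron 2135 bp upstream of the internal TSS, with ranks of 1435 and 1014 in replicates 1 and 2. An interval 861 bp upstream of the 5′ end of the gene had a signal of 52.1 and rank 1334, and its ranks were far apart, at 6737 in replicate 1 and 662 in replicate 2. The third had its summit 381 bp upstream of the internal TSS, with a signal of 47.9 and rank 1586, and it was outside the strongest 1696 of both replicates, at ranks 2434 and 1774. Within 500 bp of the TSS at the 5′ end the strongest candidate ranked 6873 in the pooled list, with no candidate in replicate 1.

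**Figure D2:**
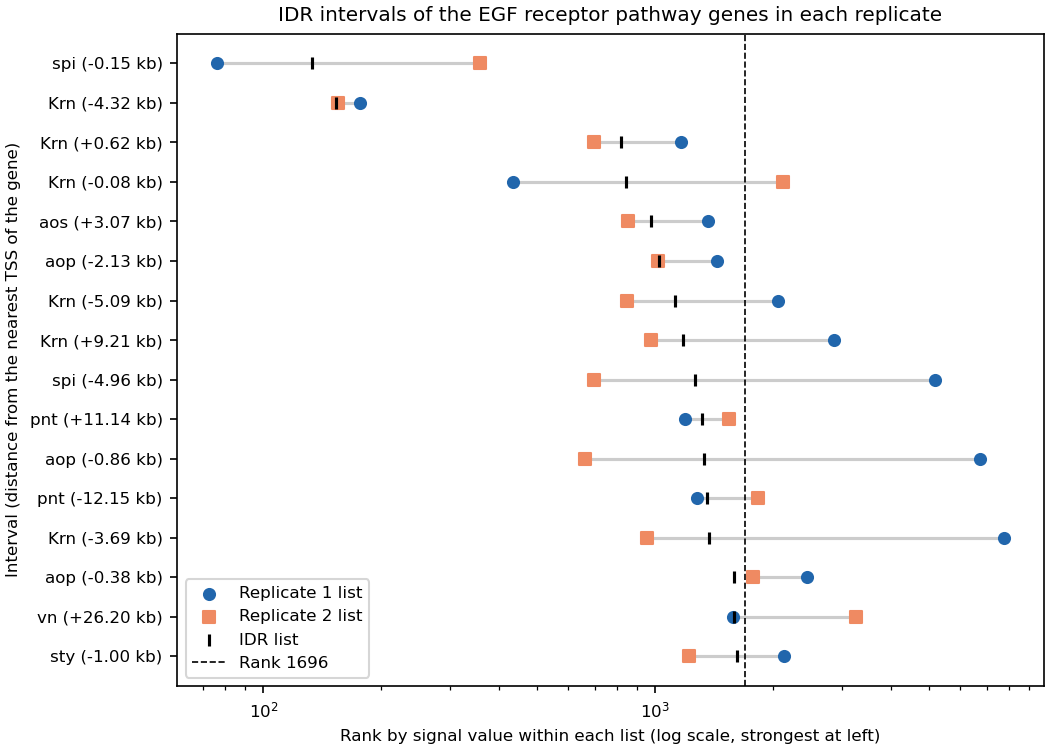
Ranks of the 16 IDR intervals in each list. The x axis is the rank by signal value on a log scale, circles are replicate 1, squares are replicate 2, black ticks are the IDR list and the dashed line is rank 1696. The intervals of rank 133 at spi and 153 at Krn lie left of the line in both replicates, and 9 of 16 circles and 12 of 16 squares lie left of it.

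Every one of the 16 intervals had a candidate within 250 bp in both replicates, but their ranks differed widely. Of the 16, 6 were among the 1696 strongest of both replicates, against 61.4% of all IDR intervals. Those 6 were the strongest interval of spi, the intergenic interval of rank 153 and the intronic interval of Krn, the interval of aos, the intronic interval of rank 1023 of aop and the interval of rank 1311 of pnt. The list's weaker intervals repeat less well in general. Among the 848 weakest of the IDR list 28.2% were among the 1696 strongest of both replicates, and 3 of the 12 pathway intervals in that range were, which is close to that share. Ranks were better in replicate 2 for 11 of 16 and in replicate 1 for 5, among them those of both pnt intervals, while replicate 2 was better for 49.2% of the 1689 IDR intervals matched in both replicates. Spearman's rho between the replicate ranks was 0.04 over the 16 intervals and 0.49 over the 1689 IDR intervals matched in both replicates, across intervals that share their libraries. These values are not matched for strength. The 16 intervals had pooled signals of 47.4 to 139, while the IDR list reached 689, and a narrower range can lower rho by itself. Both replicates had 14 of their 1696 strongest candidates in the regions of the 10 genes, of which 5 in replicate 1 and 2 in replicate 2 overlapped no IDR interval.

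Promoters held a smaller share of the pathway intervals than of the whole list. A summit within 500 bp of the gene's own TSS was found at 3 of the 10 genes, spi, Krn and aop, against 10.7% of all protein-coding genes. At spi and aop it was an internal TSS, so with the 5′ end of the gene alone the count was 1, at Krn. Without replicate 1 it was also 1, at spi. A pooled candidate within 500 bp of a TSS was found at 8 of the 10 genes, all but ru and sty, against 45.9% of protein-coding genes. The shares of protein-coding genes are not matched for span or number of TSSs, and a gene with more TSSs has more places for such a summit. The gene spi has 3 TSSs and aop has 2. No share of all genes is given for the 5′ end alone. Of the 16 IDR intervals, 5 lay within 500 bp of any TSS, 3 of them at the genes themselves and 2 at Hakai and Pep, against 66.2% of the 1696 IDR intervals. The other 11 were intronic in 7 cases and intergenic in 4. Introns thus held 43.8% of the 16 intervals, against 24.1% of the 1680 other IDR intervals, and intergenic sequence 25.0% against 7.26%. Of the 4 intergenic intervals 3 are the cluster upstream of Krn. Without the region of Krn, 1 of 10 intervals was intergenic (10%), close to the share of the rest of the list, 6 were intronic (60%) and 3 lay at promoters (30%). No IDR interval of these genes lay in a coding exon or an untranslated region outside promoters. These classes are rare in the whole list, with 0.417% of the 1680 other IDR intervals in coding exons, 0.357% in 5′ UTRs and 0.714% in 3′ UTRs. Among the 99 weaker candidates of the regions, 57.6% were intronic and 26.3% at promoters, against 37.4% and 31.1% of the 19930 other weaker candidates. The regions were defined by the spans of long genes, and no test was run on these shares. They are also not matched for strength, as 12 of the 16 intervals were among the 848 weakest of the IDR list. Promoters held 66.5% of the 1680 other IDR intervals but 31.1% of the 19930 other weaker candidates. With a promoter of 1000 bp the count of 5 was 8, and with the strongest 1696 candidates of either replicate alone it was 3.

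**Figure D3:**
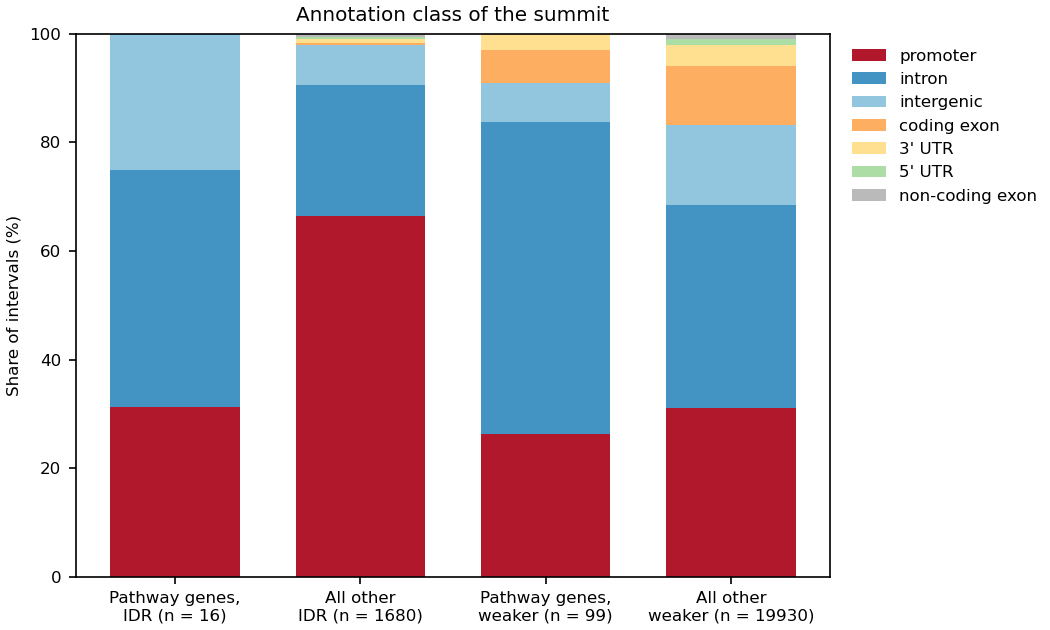
Annotation class of the summits. The y axis is the share of intervals in percent, and the bars are the 16 IDR intervals of the pathway genes, the 1680 other IDR intervals, the 99 weaker candidates of the pathway genes and the 19930 other weaker candidates. Promoters, within 500 bp of any TSS, make up 31.2% of the first bar and 66.5% of the second.

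Of the 16 windows around the summits 5 held at least 1 of the elements searched, and 16 windows are too few to read these shares as particular to the pathway genes. The windows, each the summit base with 100 bp on either side, were searched on both strands for 9 elements. The other 11 held none, or 68.8%, against 60.7% of all IDR windows and 57.5% of the windows of weaker candidates. The KLF core, CACACCC or CACGCCC, was in 1 window, that at Hakai near spi, or 6.25%, against 2.42% of all IDR windows and 5.17% of the weaker candidates. The ETS core CGGAAG, an element of the kind that Pointed and Anterior open bind, was in 1 window, that upstream of the internal aop TSS, against 4.48% of all IDR windows and 5.69% of the weaker candidates. At least 2 copies of CGATA, the element of the insulator protein BEAF-32, were in 2 windows, at the shared Krn promoter and at Pep, or 12.5%, against 17.5% of all IDR windows and 6.54% of the weaker candidates. The window at Pep also held the Dref element TATCGATA, found in 7.02% of all IDR windows and 1.93% of the weaker candidates. That element reads as CGATA on both strands, so a single copy of it also counts as a CGATA pair. The E-box CAGGTG was in the intronic Krn window alone, against 5.78% of all IDR windows and 7.88% of the weaker candidates. The element AGGAC, of the type bound by the repressor Tramtrack, was in the windows at Pep and Hakai, against 7.67% of all IDR windows and 16.7% of the weaker candidates. The M1BP element GGTCACACT was in none of the 16, against 2.00% of all IDR windows and 1.13% of the weaker candidates. The GAGA element GAGAGAG was in none either, against 5.07% and 3.95%, nor was the CA repeat CACACACA, against 2.77% and 5.68%. A match of letters is a description and not a bound site. The median GC content was 39.3% in the 16 windows and 37.3% in all IDR windows, and 42.3% in the weaker candidates, with 69.2% at Hakai and 30.3% at the interval of rank 1311 of pnt.

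Other genes of the pathway gave shares near those of all genes at promoters. The list held 30 genes, and 4 of them, or 13.3%, had an IDR summit within 500 bp of a TSS, against 10.7% of protein-coding genes. An IDR interval in the span plus 5 kb was found at 13, or 43.3%, against 28.9% of protein-coding genes, a share not matched for span. The 4 genes with an IDR summit at a TSS were 3 of the 13 relay genes and 1 of the 3 nuclear regulators. The adaptor gene Shc had a signal of 315 and rank 21, with ranks of 23 and 20 in replicates 1 and 2, and its summit 116 bp upstream is also within 500 bp of a TSS of Atat. The corepressor gene gro had a signal of 137 and rank 137, 85 bp upstream, with ranks of 151 and 154. The gene 14-3-3zeta had a signal of 98.3 and rank 328, 9 bp downstream of a TSS and also at the promoter of RpLP0-like. Ras85D, the Ras GTPase gene, had a signal of 83.7 and rank 459, 115 bp upstream and also at the promoter of Rlb1. None of the 6 other ligand and processing genes or the 8 other inhibitor genes had such a summit. These groups are too small to read the counts as a difference between roles. An IDR interval in the span plus 5 kb was found in every group. The counts were 7 of 13 relay genes, 2 of 3 nuclear regulators, 2 of 6 ligand and processing genes and 2 of 8 inhibitor genes. The median rank of the strongest pooled candidate was 1082 for the 13 relay genes, 1295 for the 3 nuclear regulators, 2624 for the 7 other inhibitor genes with a candidate and 3689 for the 5 other ligand and processing genes with a candidate.

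**Figure D4:**
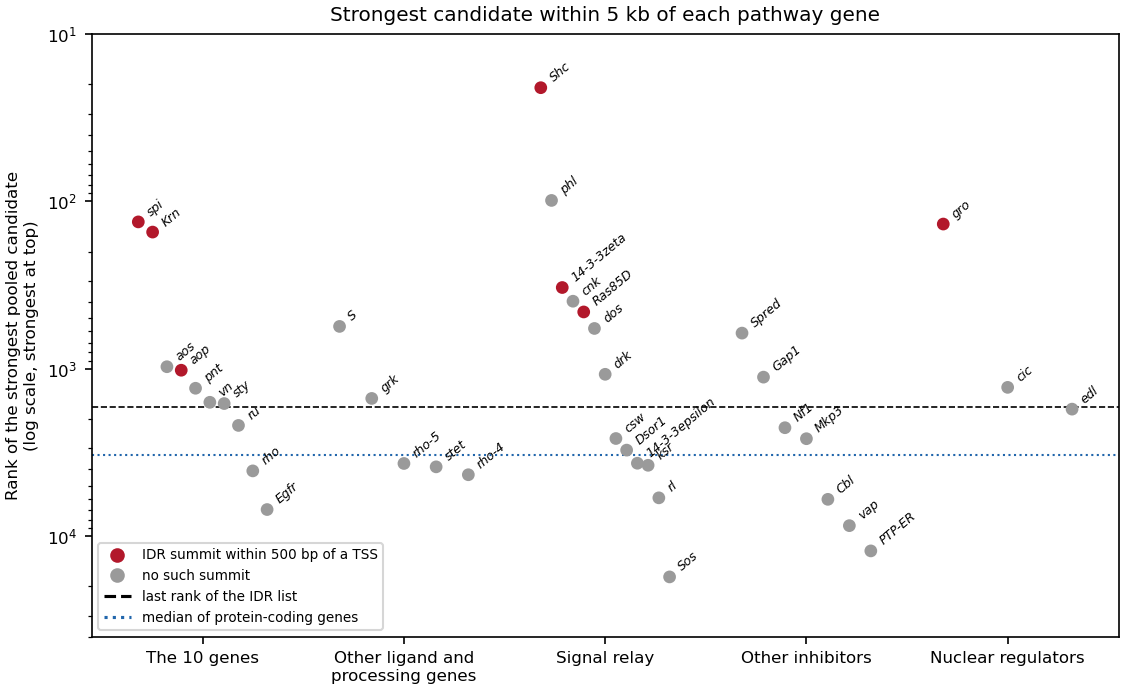
Rank of the strongest pooled candidate within the span plus 5 kb. The y axis is the rank of 21725 on a log scale with the strongest at the top, points are genes grouped by role, red points have an IDR summit within 500 bp of a TSS, the dashed line is rank 1696 and the dotted line is the median of protein-coding genes, 3263. Shc at rank 21 is highest, spi at 133 and Krn at 153 lead the 10 genes, and rho-6 and kek1 are not drawn because they had no candidate.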

How the data were processed

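The authors deposited peak lists in narrowPeak format, and the 4 in dm6 were used: candidates of replicate 1 and replicate 2, candidates of both replicates pooled, and the IDR list. Per the deposited README texts, candidates were derived from the alignments and 1 further file that is not described there, and the IDR list from the other 3 lists. The software that aligned reads and called peaks, and the level of the IDR threshold, were not given in the sources used here. Each deposited signal value, a score of unstated scale, was used for ranks within a list. The deposited q value, on the −log10 scale, is equal throughout the IDR list and was not used for ranks. The deposited summit offset is the middle of nearly all intervals, most of which have 1 width per list (376 bp in the pooled and IDR lists, 364 bp in replicate 1 and 380 bp in replicate 2). Depth is unknown, and no interval or count limit that needs it is given.

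Genes and TSSs came from Ensembl release 115 (BDGP6.54, dm6 coordinates), without transposable elements. Coordinates are 1-based, and 0 intervals reached beyond an arm's end. A promoter summit lay within 500 bp of a TSS, and any other summit was classed by the first that held of 5′ UTR, coding sequence, 3′ UTR, exon of a non-coding gene, intron, and otherwise as intergenic. The replicate match was the nearest summit within 250 bp. Of 40 pathway symbols, 2 were matched as synonyms through RefSeq (phl as Raf, Gap1 as RasGAP1). The 10 genes and the lists were chosen with earlier results of these data known. All 10 genes and all their IDR intervals are named. Of the other pathway genes, values are given for those with an IDR promoter summit and for phl. The replicates are biological replicates of 1 group per the labels, with no second condition, so no test was run, and shares are set beside those of all genes. The functions were tested on made-up intervals. Python 3.11.15, pandas 2.3.3 and SciPy 1.17.1 were used. The dm3 lists were not used here.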

Additional observations from a re-analysis of the deposited data

How the results depend on the processing

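Of 40 recomputed counts, 30 were within 1.5 times the value reported. With the 848 strongest IDR intervals alone, 2 of the 10 genes, spi and Krn, had an interval, with 4 intervals in all. With the gene span alone there were 10 IDR intervals at 7 genes, and with intervals whose nearest protein-coding TSS belongs to the gene, a shared TSS included, 10 at 6 genes. With summits in the gene span alone, the strongest pooled candidate of Krn ranked 815 in place of 153. That of ru ranked 6909 in place of 2186, and those of the other genes kept their ranks. Genes with an IDR summit at a promoter numbered 1 with the 5′ end of the gene alone, and between 1 and 2 with the 1696 strongest candidates of a single replicate. The other pathway genes with such a summit numbered 7 with a promoter of 1000 bp. The intervals at any TSS numbered 8 with a promoter of 1000 bp and 3 with the strongest 1696 of each replicate alone, alternatives chosen after seeing the data. Each replicate alone gave 7 genes with an interval, but with ru in place of sty in replicate 1. In replicate 2, vn counted only through the candidate in an intron of S6k, because its IDR interval ranked 3253 there. The causes were not tested. In windows of 50 bp on either side, also chosen after seeing the data, the KLF core, the ETS core and the E-box were in 0 of the 16, against 1.18%, 2.65% and 3.12% of all IDR windows, each under 1 window in 16. No paired analysis was possible because there was 1 group. Depth is unknown, so a candidate of low rank or none does not show that the fusion protein was absent.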
